A study of Homo sapiens with 6 samples.

Results

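The ATP-binding cassette (ABC) genes are described here in 6 cultures of HepG2, a human cell line established from a hepatocellular carcinoma. They were chosen by symbol, as the gene rows named ABC followed by a subfamily letter from A to G and a number. Earlier results of these data were known at that time. The 44 genes reported, of 57773 rows, are 12 of subfamily A, 8 of B, 12 of C, 3 of D, 1 of E, 3 of F and 5 of G. The study compared 3 cultures given human recombinant TGFB1 ligand (TGFβ) at 5 ng/mL with 3 cultures given the vehicle alone, all for 3 h. All 6 cultures were of the same unmodified line, were grown in MEM with serum and, per the methods, were treated in serum-free MEM. RNA was read from whole cultures by poly(A)-selected RNA sequencing (TruSeq v2 for mRNA). A tumor line in monolayer has no bile duct system to drain into and is 1 line, which limits it as a model of liver transport. The methods call the sequenced cultures biological replicates, and p-values weigh the difference between the groups against the spread between these cultures.

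ABC proteins bind ATP in a pair of conserved cassettes and use it to move lipids, bile salts, metals, peptides and drugs across membranes. Subfamilies A to D and G are membrane transporters, whereas E and F proteins have the cassettes without membrane spans and act in translation. In hepatocytes the family is known for the export of cholesterol to HDL particles, of sterols, phospholipid and conjugated drugs into bile, and of the same conjugates back to blood.

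Between 60815385 and 88415362 reads were counted on genes in the vehicle cultures and between 73263662 and 100099136 in the TGFβ cultures, of which the 44 ABC genes held 0.186% to 0.218%. The TGFβ label was checked with SMAD7, SKIL and PMEPA1, known targets of the pathway, which were higher in all 3 TGFβ cultures. The 8 hepatocyte markers summed to between 37159 and 41559 TMM-normalized CPM (counts scaled to a common library size) with vehicle and between 35753 and 40450 CPM with TGFβ, and 0 of the 8 passed an FDR of 0.05 without the culture number as a block, while with it TTR was lower (FDR 0.0495). Leukocyte PTPRC and CD3E and endothelial VWF and CDH5 were at or near 0. The 5 fibroblast markers summed to between 13.6 and 15.0 CPM with vehicle and between 23.3 and 34.6 CPM with TGFβ, nearly all of it COL1A1 and PDGFRB, both of which were higher with the block only (FDR 0.00806 and 7.25e-06), while COL1A2, DCN and LUM were at or near 0. The 4 leukocyte markers summed to between 1098 and 1424 CPM with vehicle and between 951 and 1046 CPM with TGFβ, nearly all of it LYZ, which was lower with the block only (FDR 0.0157). The 3 cholangiocyte markers summed to between 897 and 1077 CPM with vehicle and between 949 and 1169 CPM with TGFβ. Of these, KRT7 had 12 to 18 reads with vehicle and 30 to 50 with TGFβ (log2 fold change 1.36, FDR 0.0615; with the block, FDR 0.0230). The part of these differences in the ABC results was not tested.

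Across the family, a few members moved and most did not. Of the 44 genes, 39 had enough reads to be tested, and 4 of them (10.3%) passed a false discovery rate (FDR) of 0.05 in the edgeR quasi-likelihood test, with Benjamini-Hochberg adjustment across the 22747 tested genes. By the same rule 4.12% of all tested genes were called, 3.11% higher and 1.01% lower. ABCA5 and ABCA10 were higher with TGFβ, and ABCC2 and ABCG2 were lower. Cultures with the same number deviated together, and with the culture number as a block 10 of the 39 (25.6%) were called, beside 11.8% of all tested genes (8.08% higher and 3.75% lower). The block added ABCC1, ABCC3 and ABCC6 on the higher side and ABCD3, ABCG5 and ABCG8 on the lower side. In RNA of a whole culture, fewer cells carrying a transcript and less of it per cell cannot be told apart.

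The median log2 fold change of the 39 tested members was -0.02, and that of all tested genes was -0.01. At the level of single cultures, 4 members had all 3 TGFβ values above all 3 vehicle values and 8 had them all below, while 27 overlapped. Among all tested genes 10.4% were fully above and 8.23% fully below. Within culture numbers, 10 members had a positive and 14 a negative log2 ratio in all 3 pairs, beside 23.2% and 20.9% of all tested genes.

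**Figure D1:**
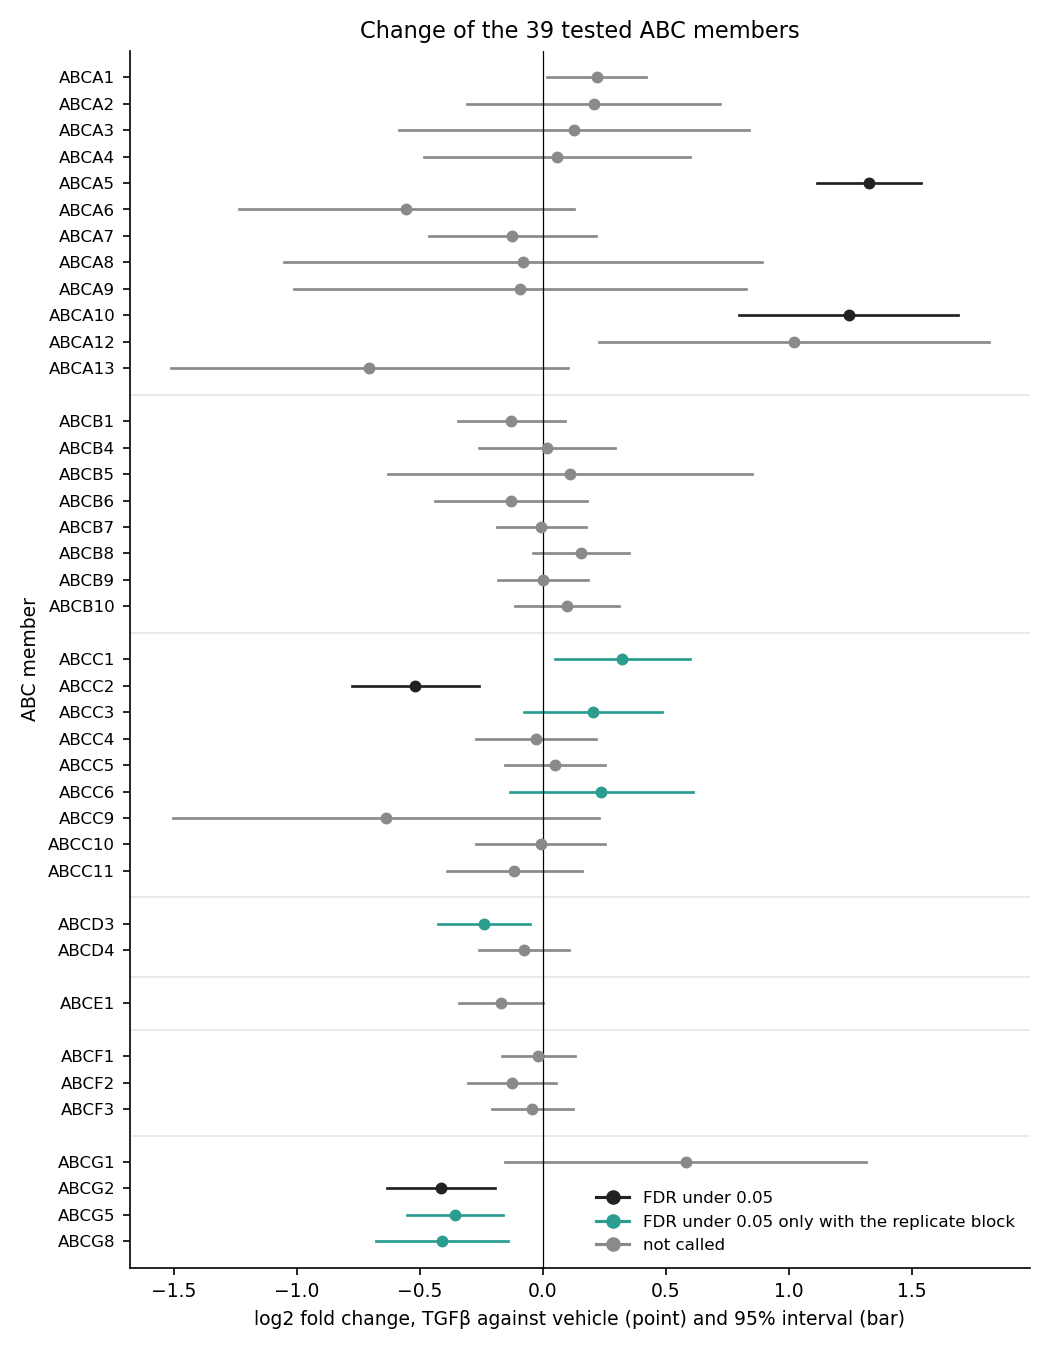
Log2 fold change of TGFβ against vehicle for the 39 tested ABC members (points) with its 95% interval (bars), grouped by subfamily on the vertical axis. Black marks the 4 members at an FDR under 0.05, green the 6 that passed only with the culture number as a block, and grey the rest. ABCA5 and ABCA10 stand farthest to the right, and the intervals of the subfamily B, E and F members all cover 0.

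**Figure D2:**
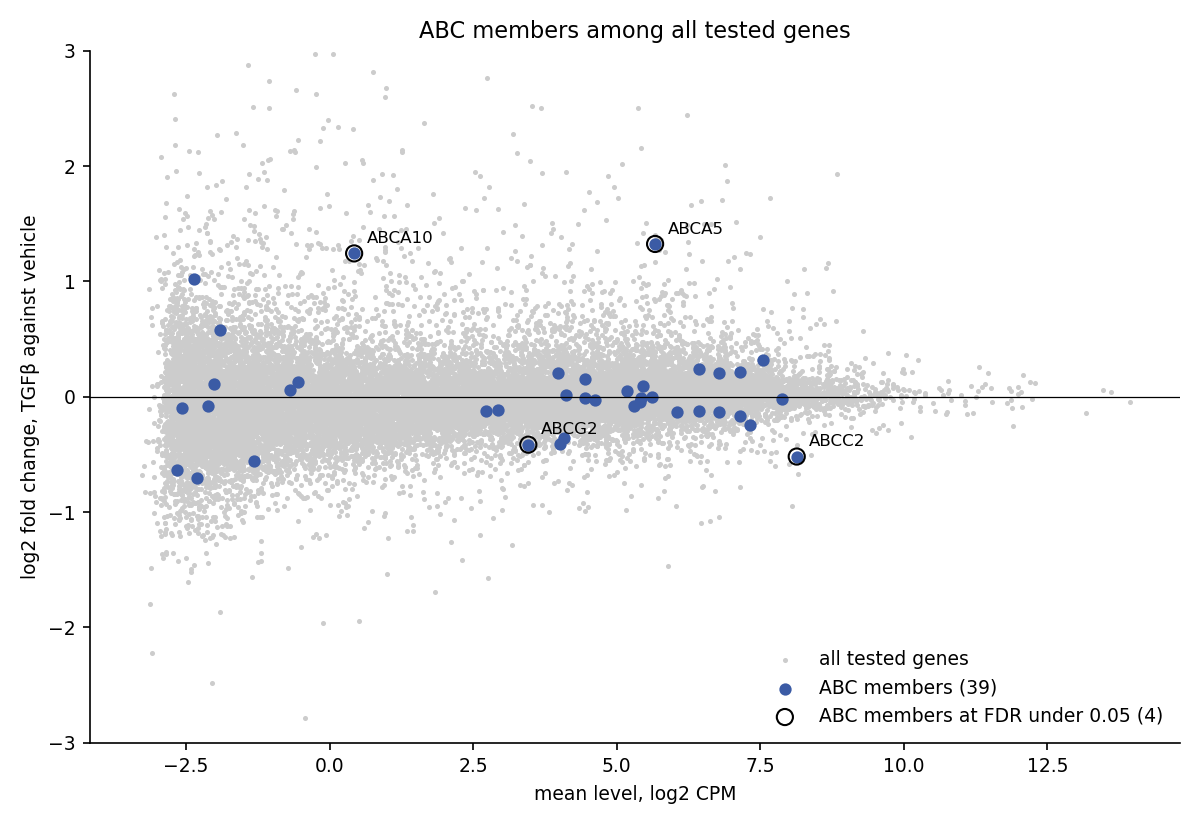
Log2 fold change against mean level in log2 CPM for all tested genes (grey) and the 39 ABC members (blue), with the 4 called members circled. 14 genes beyond 3 log2 units are not drawn. Most members sit within the cloud of other genes of their level.

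Levels were compared between members as deposited RPKM, which divides by the coding length. In the vehicle cultures 26 members had a mean above 1 RPKM, 16 were below 0.1 RPKM and 2 lay between. ABCC2 and ABCF1 led, with ABCC2 at 40.9, 51.4 and 39.8 RPKM in vehicle cultures 1 to 3 and ABCF1 at 43.9, 42.4 and 43.6 RPKM, so these neighbors were not separated by the spread. With TGFβ, ABCC2 was at 31.1, 34.4 and 24.5 RPKM and ABCF1 at 41.9, 42.4 and 40.5 RPKM, without overlap. By share of the family's summed vehicle RPKM, subfamily C held 32.8%, F 24.3%, B 18.3%, D 8.18%, E 7.19%, A 4.86% and G 4.40%. The share of A lay between 4.48% and 5.19% in vehicle cultures and between 6.51% and 7.02% in TGFβ cultures, and that of G between 4.37% and 4.45% and between 3.33% and 3.66%. The shares of B, C, E and F overlapped between the groups. That of D was just apart, at 7.757% in the lowest vehicle culture and 7.755% in the highest TGFβ culture.

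**Figure D3:**
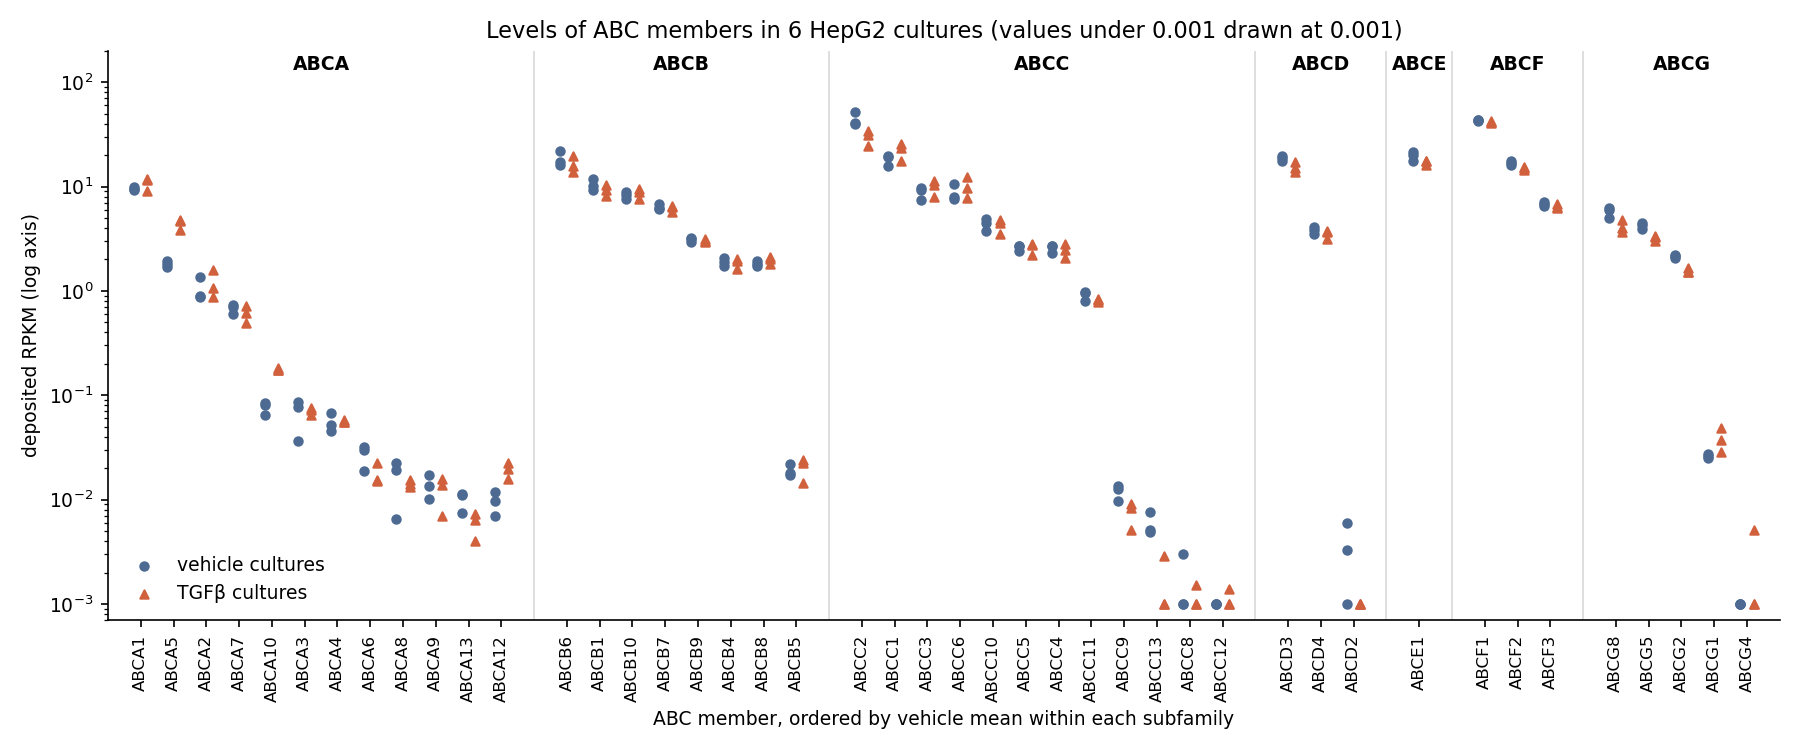
Deposited RPKM (log axis) of the 44 ABC members in the 3 vehicle cultures (circles) and the 3 TGFβ cultures (triangles), ordered by vehicle mean within subfamilies A to G, with values under 0.001 drawn at 0.001. Most members keep their place in both groups, with ABCA5 and ABCA10 shifted up in TGFβ cultures.

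Subfamily A moves mainly phospholipid and sterol. All 12 members were tested, 2 were higher and 0 were lower, both without and with the block. Among all tested genes 3.11% were higher and 1.01% lower without the block, and 8.08% and 3.75% with it. The strongest response of the family was that of ABCA5, a lipid transporter of late endosomes and lysosomes (ENSG00000154265, chr17:67240452-67323385, minus strand, hg19). ABCA5 was at 31.3, 26.2 and 29.5 CPM in vehicle cultures 1 to 3 and at 76.3, 76.2 and 65.5 CPM in TGFβ cultures 1 to 3. Every TGFβ culture stood above every vehicle culture. The level with TGFβ was 2.50 times that with vehicle (log2 fold change 1.32, standard error 0.09, FDR 6.46e-05), and within pairs 1 to 3 the log2 ratio was 1.29, 1.54 and 1.15. Both cultures of pair 1 were in sequencing lane 1 and both of pair 2 in lane 3. Those of pair 3 were in different lanes, vehicle in 4 and TGFβ in 5. ABCA5 passed the FDR threshold under all 14 alternatives tried, including each culture left out. In RPKM it went from 1.82 ± 0.12 to 4.46 ± 0.52 (SD, n = 3).

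The 250 bases before the RefSeq start of ABCA5 are shown because this member changed most. They are printed 5′ to 3′ on the minus strand (chr17:67323275-67323524, GRCh37), with CAGAC or its reverse complement GTCTG, the core letters of the SMAD-binding element, in capitals.
ABCA5: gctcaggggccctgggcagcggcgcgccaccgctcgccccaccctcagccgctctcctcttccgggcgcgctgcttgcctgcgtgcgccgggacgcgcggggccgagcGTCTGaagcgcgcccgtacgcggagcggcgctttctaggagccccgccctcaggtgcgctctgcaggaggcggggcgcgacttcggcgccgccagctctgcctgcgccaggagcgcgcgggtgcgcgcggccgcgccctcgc
This stretch had a GC content of 79.2% and 1 such match. The letters are common, since 45.3% of the 35116 promoters of 300 bases in the RefSeq table (GRCh38.p14) hold them on either strand. Of the 34 ABC members with an entry, 18 do. A member counted if any of its promoters matched, and the 34 members have 52 promoters. The share of all promoters is per promoter, so it is not on the same scale as the count of members. A match is a description of the letters and not a binding site.

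ABCA10 (ENSG00000154263, chr17:67143355-67240987, minus strand) lies directly downstream of ABCA5 on the same strand and overlaps its end by 536 bases. It was at 0.872, 0.640 and 0.828 CPM with vehicle and at 1.88, 1.75 and 1.91 CPM with TGFβ. The groups did not overlap, although the counts behind them were only 51 to 77 and 139 to 182 reads, against 1818 to 7392 reads on ABCA5. The log2 fold change of ABCA10 was 1.24 (standard error 0.20, FDR 0.00674), and it passed under all 14 alternatives. How many of its reads came from the stretch shared with ABCA5 cannot be told from gene counts, and their part in its change was not tested. A pseudogene of SNRPG inside ABCA5 on the opposite strand, SNRPGP4, went from 5, 2 and 6 reads in the vehicle cultures to 22, 24 and 17 in the TGFβ cultures (log2 fold change 2.13, FDR 0.0303). The library kit does not mark strand, so reads of SNRPGP4 and of ABCA5 cannot be told apart there. The other genes of this cluster on chromosome 17 are ABCA6, ABCA9 and ABCA8, in that order downstream of ABCA10. They had between 6 and 41 reads per culture, overlapped between the groups and were not called. At this depth the intervals were wide, for ABCA6 from -1.24 to 0.13 on the log2 scale.

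ABCA1, which loads cholesterol and phospholipid onto apolipoprotein A-I to form HDL, had the highest level of the subfamily, 9.55 ± 0.34 RPKM with vehicle (SD, n = 3). Its level was 132, 124 and 138 CPM with vehicle and 161, 162 and 134 CPM with TGFβ. Pairs 1 and 2 were higher by 0.29 and 0.39 on the log2 scale and pair 3 was at -0.04, so the groups overlapped. The log2 fold change was 0.22 (standard error 0.09, FDR 0.307), and ABCA1 passed under 0 of the 14 alternatives. ABCA12, a lipid transporter of the skin barrier, had its TGFβ cultures all above its vehicle cultures on 14 to 25 against 5 to 12 reads (log2 fold change 1.02, 95% interval 0.23 to 1.81, FDR 0.196). ABCA13 had all 3 TGFβ cultures below, also on few reads (log2 fold change -0.71, FDR 0.463). ABCA2 and ABCA7 had vehicle means of 1.04 and 0.681 RPKM, and ABCA3 and ABCA4, the surfactant and retinal transporters, were below 0.1 RPKM. None of these passed the test.

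Subfamily B holds the multidrug exporter ABCB1, the bile phospholipid transporter ABCB4, mitochondrial transporters and the lysosomal peptide transporter ABCB9. All 8 were tested and 0 were called, with or without the block, 0 by DESeq2, and 0 at an unadjusted p under 0.05, beside 13.7% of all tested genes at that level. The log2 fold changes lay between -0.13 and 0.15, the narrowest range of any subfamily with more than 3 tested members, and all 8 overlapped between the groups. ABCB1, which pumps many drugs out of cells, was at 63.0, 77.2 and 68.7 CPM with vehicle and at 63.8, 69.5 and 57.8 CPM with TGFβ (log2 fold change -0.13, 95% interval -0.35 to 0.09, FDR 0.689). ABCB4 was at 15.9, 16.6 and 19.1 CPM with vehicle and at 18.9, 14.5 and 18.7 CPM with TGFβ (log2 fold change 0.02, 95% interval -0.26 to 0.29), and its sign was negative under total-count scaling (-0.03). ABCB8, of the mitochondrial inner membrane, had the largest value (log2 fold change 0.15, 95% interval -0.04 to 0.35, FDR 0.531). ABCB6, a porphyrin transporter, had the highest level at 18.3 ± 2.98 RPKM with vehicle (SD, n = 3), but nearly its whole span lies inside the row of ATG9A on the same strand, so its reads are uncertain. On the opposite strand, ABCB9 is overlapped by RP11-197N18.2, OGFOD2 and ARL6IP4 over 6330, 5464 and 1590 of its 60699 bases. Its reads in those parts are uncertain too. ABCB5 was the only member of the subfamily below 0.1 RPKM.

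Subfamily C contains the conjugate exporters known as MRPs. Of 12 members 9 were tested. ABCC2 was lower with or without the block, and ABCC1, ABCC3 and ABCC6 were higher with the block only. Among all tested genes 1.01% were lower without the block, and 3.75% were lower and 8.08% higher with it. ABCC2 (MRP2), which exports bilirubin glucuronide and drug conjugates into bile, is on the plus strand of chromosome 10 (ENSG00000023839, chr10:101542489-101611949). It was at 312, 377 and 304 CPM with vehicle and at 238, 258 and 197 CPM with TGFβ. All TGFβ cultures were below all vehicle cultures, and the log2 ratio was -0.39, -0.55 and -0.63 in pairs 1 to 3. The level with TGFβ was 0.698 times that with vehicle (log2 fold change -0.52, standard error 0.12, FDR 0.0356; with the block, FDR 7.63e-05). The call without the block was lost when 1 culture was left out in 5 of 6 cases, at an FDR of 0.0598, 0.136 and 0.0729 without vehicle culture 1, 2 or 3 and of 0.0737 and 0.0647 without TGFβ culture 1 or 3. The log2 fold change stayed between -0.62 and -0.42.

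The 250 bases before the RefSeq start of ABCC2 (chr10:101542147-101542396, plus strand, GRCh37) are shown for contrast with those of ABCA5, since both were called in opposite directions.
ABCC2: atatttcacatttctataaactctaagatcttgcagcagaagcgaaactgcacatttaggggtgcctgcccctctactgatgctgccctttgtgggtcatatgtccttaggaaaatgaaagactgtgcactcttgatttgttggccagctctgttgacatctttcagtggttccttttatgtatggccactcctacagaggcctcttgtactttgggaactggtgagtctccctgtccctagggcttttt
The GC content of these 250 bases was 45.6%. The median over all promoters in the table was 58.7%, in windows of 300 bases that include 50 after the start. The printed stretch of ABCC2 holds neither CAGAC nor GTCTG, which says only that these letters are not in this window. Among the 8 members called with the block that have an entry, 4 hold these letters in a promoter. They are ABCA5 and ABCC6, which were higher, and ABCG5 and ABCG8, which were lower. The letters therefore occur in members of both directions. ABCA10, which was higher, and ABCG2, which was lower, have an entry without them. For ABCG5 and ABCG8 they lie outside the shared stretch printed below.

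ABCC1, ABCC3 and ABCC6 sit on the basolateral membrane and export toward blood. ABCC1 (MRP1), a glutathione conjugate exporter, was at 181, 171 and 146 CPM with vehicle and at 216, 235 and 170 CPM with TGFβ. TGFβ culture 3 fell among the vehicle values, and each TGFβ culture was above the vehicle culture of its number, by 0.26, 0.46 and 0.22 on the log2 scale. The log2 fold change was 0.32 (standard error 0.12, FDR 0.256), and with the block the FDR was 0.00301. Without TGFβ culture 3 the FDR was 0.0439 without a block. ABCC6, an ATP-releasing protein whose loss causes ectopic calcification, was at 97.8, 70.4 and 70.1 CPM with vehicle and at 116, 89.1 and 76.2 CPM with TGFβ. Its groups overlapped, and the log2 ratio within pairs was 0.24, 0.34 and 0.12 (log2 fold change 0.24, FDR 0.651; with the block, FDR 0.0168). ABCC3 (MRP3) was at 114, 104 and 87.6 CPM with vehicle and at 124, 131 and 97.5 CPM with TGFβ. Here too the groups overlapped while each pair had a positive log2 ratio, 0.12, 0.33 and 0.15 (log2 fold change 0.20, FDR 0.582; with the block, FDR 0.0362).

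ABCC1 and ABCC6 face each other on chromosome 16 with 5853 bases between their ends. ABCC6 has near-identical partial copies, of which ABCC6P1 held 2071 to 4412 reads (log2 fold change 0.31, FDR 0.0635) and ABCC6P2 25 to 62 reads (log2 fold change 0.75, FDR 0.177), so the split of reads among the 3 is uncertain. ABCC4, which is also basolateral, ABCC5 and ABCC10 are further organic anion exporters, with log2 fold changes of -0.03, 0.05 and -0.01 and vehicle means of 2.55, 2.58 and 4.39 RPKM, and were not called. ABCC9, the sulfonylurea receptor subunit of potassium channels in muscle, had the largest value in the subfamily but on 0.165 ± 0.03 CPM with vehicle and 0.107 ± 0.03 CPM with TGFβ (SD, n = 3), and its interval ran from -1.50 to 0.23. ABCC8, ABCC12 and ABCC13 were not tested, since they had 0 to 8 reads per culture.

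**Figure D4:**
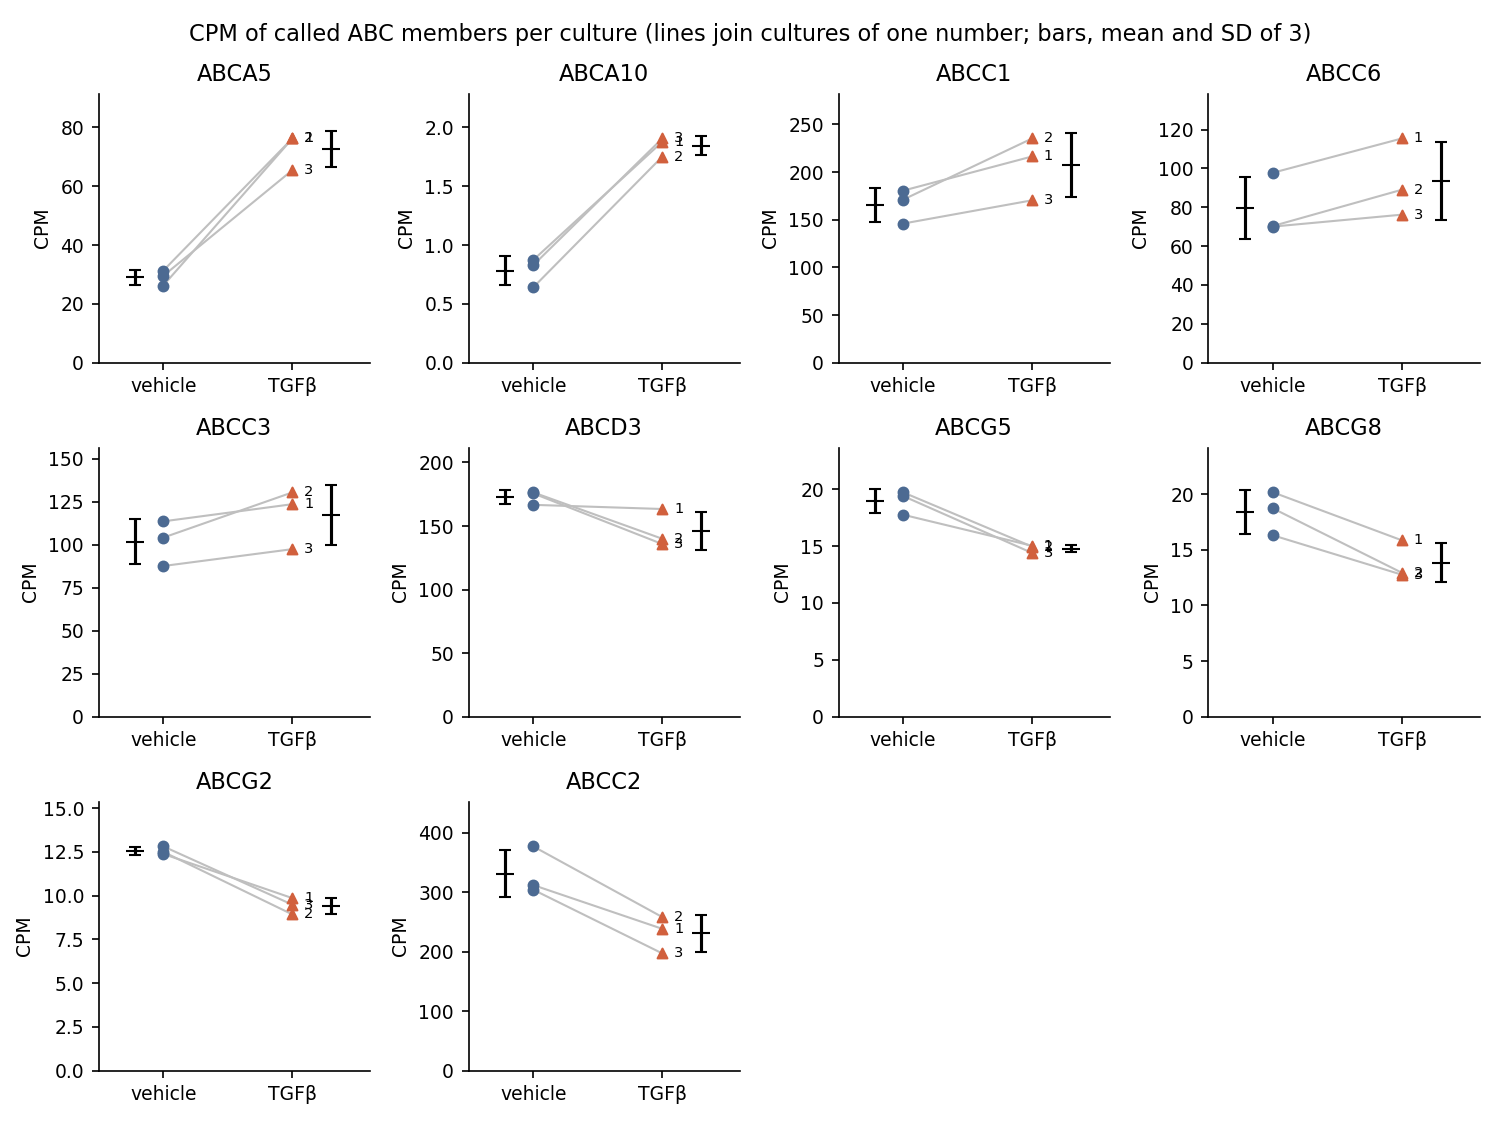
CPM of the 10 ABC members called with or without the block in the 3 vehicle cultures (circles) and the 3 TGFβ cultures (triangles, numbered), with lines joining cultures of one number and bars for mean and SD. All 3 lines rise in ABCA5, ABCA10, ABCC1, ABCC6 and ABCC3 and fall in ABCD3, ABCG5, ABCG8, ABCG2 and ABCC2.

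Subfamily D brings fatty acids into peroxisomes, apart from ABCD4, which works in lysosomal cobalamin export. Of 3 members 2 were tested, 0 were called without the block and 1 was lower with it, beside 3.75% of all tested genes. DESeq2 called 0. At an unadjusted p under 0.05, 1 was lower, beside 13.7% of all tested genes in either direction. ABCD3 (PMP70), which imports branched fatty acids and bile acid precursors, had the highest level of the 3 at 18.7 ± 0.90 RPKM with vehicle (SD, n = 3). It was at 167, 176 and 176 CPM with vehicle and at 163, 140 and 136 CPM with TGFβ. The groups did not overlap, but the log2 ratio was only -0.03 in pair 1, against -0.33 and -0.37 in pairs 2 and 3 (log2 fold change -0.24, FDR 0.199; with the block, FDR 0.0400). ABCD4 was at 41.2, 42.3 and 37.8 CPM with vehicle and at 40.2, 39.2 and 35.6 CPM with TGFβ. Its groups overlapped, and it was not called (log2 fold change -0.08, 95% interval -0.26 to 0.10, FDR 0.793). ABCD2 was too low to test, with 4, 2 and 0 reads in the vehicle cultures and 0 in each TGFβ culture.

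Subfamily E has 1 member, ABCE1, which splits ribosomes after termination. It was at 136, 158 and 154 CPM with vehicle and at 136, 132 and 131 CPM with TGFβ. The TGFβ values were all below the lowest vehicle value, but in culture 1 by less than the digits shown, and ABCE1 was not called (log2 fold change -0.17, 95% interval -0.34 to 0.00, FDR 0.372; with the block, FDR 0.0996). Subfamily F, the other cytosolic group, acts in translation and in sensing amino acid supply. ABCF1, an initiation factor partner, was at 243, 226 and 242 CPM with vehicle and 233, 231 and 237 CPM with TGFβ (log2 fold change -0.02, 95% interval -0.17 to 0.13). ABCF2 had the largest value of the 3, -0.13 with an interval from -0.30 to 0.05, and ABCF3, which lies inside the row of EIF2B5, was at -0.04. With or without the block 0 members of E and F were called, 0 by DESeq2 and 0 at an unadjusted p under 0.05. At that level 13.7% of all tested genes were called.

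Subfamily G contains the sterol pair ABCG5 and ABCG8, the drug and urate exporter ABCG2 and the HDL-directed sterol exporter ABCG1. Of 5 members 4 were tested, 1 was lower and 0 were higher, beside 1.01% and 3.11% of all tested genes. With the block 3 were lower, beside 3.75% of all tested genes. ABCG2 (ENSG00000118777, chr4:89011416-89152474, minus strand) was at 12.4, 12.5 and 12.8 CPM with vehicle and at 9.86, 8.92 and 9.48 CPM with TGFβ. Its vehicle cultures were close together and all TGFβ cultures were below them. The level with TGFβ was 0.750 times that with vehicle (log2 fold change -0.42, standard error 0.10, FDR 0.0454; with the block, FDR 0.00659). The call without the block was lost with any 1 culture left out, at an FDR between 0.0713 without TGFβ culture 3 and 0.196 without vehicle culture 3.

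ABCG5 and ABCG8 form 1 transporter that secretes cholesterol and plant sterols into bile, and their genes start back to back. ABCG5 (ENSG00000138075, chr2:44039611-44066004, minus strand) was at 17.8, 19.7 and 19.4 CPM with vehicle and at 15.0, 15.0 and 14.4 CPM with TGFβ. ABCG8 (ENSG00000143921, chr2:44066103-44105605, plus strand) was at 20.2, 18.7 and 16.3 CPM with vehicle and at 15.8, 12.9 and 12.7 CPM with TGFβ. In both genes every TGFβ culture was below every vehicle culture, by similar amounts. The log2 fold change of ABCG5 was -0.36 (standard error 0.09, FDR 0.0517; with the block, FDR 0.00724), and that of ABCG8 was -0.41 (standard error 0.12, FDR 0.108; with the block, FDR 0.00327). ABCG5 lay close to the threshold and passed in 8 of the 14 alternatives, ABCG8 in 3.

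The 131 bases between the RefSeq starts of both genes are shown because they precede both (chr2:44065979-44066109, GRCh37, printed on the plus strand of ABCG8). Capitals mark TTATCT, the reverse complement of the GATA motif AGATAA.
ABCG5 and ABCG8: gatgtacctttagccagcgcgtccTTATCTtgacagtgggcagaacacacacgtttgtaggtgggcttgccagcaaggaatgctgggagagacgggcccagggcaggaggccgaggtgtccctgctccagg
AGATAA or TTATCT occurs in 10.3% of all 300-base promoters in the table and in 4 of the 34 members with an entry. ABCG5 and ABCG8 are among these 4 through the same TTATCT in the shared stretch, and ABCA10 is a further one. Of the members called with the block, 8 have an entry. Of other letters searched on both strands, the AP-1 type TGANTCA occurs in 7.71% of all promoters and in 5 members, ABCA5 and ABCA10 among them. The E-box CACGTG occurs in 7.26% and in 8 members, ABCG2 among them. Members were again counted by any of their promoters, so these counts and the shares of all promoters are not on the same scale.

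ABCG1 was barely expressed, at 12 to 18 reads with vehicle and 17 to 28 reads with TGFβ. Its TGFβ cultures were all above in CPM, but the interval ran from -0.15 to 1.31 (log2 fold change 0.58, FDR 0.530). ABCG4, its relative in brain, had 0 reads apart from 3 in TGFβ culture 3 and was not tested.

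The regulators of ABC genes were followed as a list of 18 nuclear receptors and partners, all tested. NR1I2 (PXR), the xenobiotic receptor, was higher at 27.5, 27.9 and 26.4 CPM with TGFβ against 22.4, 19.0 and 21.4 CPM with vehicle (log2 fold change 0.38, FDR 0.0386). PPARGC1A, a coactivator of fasting metabolism, was lower at 14.0, 13.8 and 12.3 CPM against 21.1, 25.3 and 21.0 CPM (log2 fold change -0.75, FDR 0.00331). Neither gene overlapped between the groups, and the other 16 did not pass. With the block 4 were higher (NR1I2, RXRA, PPARG and SREBF1) and 6 lower, beside 8.08% and 3.75% of all tested genes. Among the lower ones were the bile acid receptor NR1H4 (FXR; log2 fold change -0.44, FDR 0.0613; with the block, FDR 0.000984) and its target NR0B2 (log2 fold change -0.58, FDR 0.395; with the block, FDR 6.76e-05). The median log2 fold change of the list was -0.06.

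Of 13 carriers that work beside hepatocyte ABC exporters 11 were tested, with 0 higher and 2 lower. Of all tested genes 3.11% were higher and 1.01% lower by the same rule. SLC22A9, an organic anion carrier, was at 2.20, 2.49 and 3.10 CPM with vehicle and at 1.32, 0.957 and 1.58 CPM with TGFβ (log2 fold change -1.01, FDR 0.0370). ATP8B1, the canalicular aminophospholipid flippase, was at 13.0, 13.8 and 14.2 CPM with vehicle and at 10.7, 10.3 and 9.73 CPM with TGFβ (log2 fold change -0.42, FDR 0.0441). Both were lower in each TGFβ culture than in any vehicle culture, as were 8.23% of all tested genes. The block called 2 of the 11 higher and 3 lower, beside the same 8.08% and 3.75%. Of 19 partners and acceptors of ABC proteins, such as apolipoprotein A-I and the ERM proteins, 18 were tested and 0 were called. DESeq2 called 1 of them, and the block called RDX and LCAT higher, 2 of 18 beside 8.08% of all tested genes. The peptide transporter genes TAP1 and TAP2, which are ABC genes by structure but not by symbol, had log2 fold changes of -0.11 and -0.09 and were not called, and CFTR had too few reads to test.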

How the data were processed

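Poly(A) RNA of 3 vehicle and 3 TGFβ cultures of HepG2 was sequenced. The authors aligned reads to hg19 (MAPRseq; the submitters' processing notes name TopHat2 2.0.6 and HTSeq) and deposited the raw count of each gene and its RPKM per culture in 1 table. The deposited RPKM equals the count divided by coding length and a library total. For the annotation release and counting options, none is given in the sources used here. Levels between genes were read from RPKM, all changes from counts.

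Counts were tested with edgeR 4.0.16 (limma 3.58.1, R 4.3.3): TMM, filterByExpr, robust quasi-likelihood F test, Benjamini-Hochberg adjustment over 22747 genes, FDR 0.05. Standard errors are those implied by F, and intervals are 95%. The smallest p of an exact permutation test between the groups is 0.1. The edgeR test, the block, limma-voom, DESeq2 and the exact test were first tested on simulated counts, which held no culture-number effect. The other steps were not. Correlations of deviations from group means were 0.366, 0.227 and 0.316 for same-numbered cultures and at most 0.0101 otherwise. Same-numbered cultures were therefore treated as pairs in the block fit and in the pair ratios. For pairs 1 and 2, culture number and sequencing lane cannot be told apart. The main fit used the group only and ignored the pairing. Replicates differed beyond counting noise (chi-square per gene 21.4 to 46.3). Alternatives were the block, leaving out each culture, limma-voom, DESeq2 1.42.0, its size factors in edgeR, edgeR's exact test, scaling by total counts, a minimum of 10 counts and no filter.

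The genes named are the members called in either fit, the highest and most changed member of each subfamily, well-known liver transporters, called genes of the accompanying lists and the treatment checks; ABCA12, ABCA13 and other members were named after their values were seen. Members and lists were chosen with earlier results of these data known. Promoters came from RefSeq (34 of 44 members matched), and only the printed stretches were located in GRCh37 by exact match. 2 further genes of the family are not reported here.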

Additional observations from a re-analysis of the deposited data

How the results depend on the processing

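Under the 14 alternatives, ABCA5 and ABCA10 kept their call in all. None of the 10 members called with or without the block changed sign. Among named members called in neither, ABCB4 (0.02) turned negative with total-count scaling (-0.03), no filter (-0.005) and 4 of the 6 cultures left out (down to -0.05), and ABCB6 (-0.13) turned positive without vehicle culture 1 (0.01). The count of called members, 4, was 10 with the replicate block and between 2 and 3 with 1 culture left out. Those higher, 2, became 5 with the block and between 2 and 3 with 1 culture left out. Those lower, 2, became 4 without a filter, 4 with DESeq2, 5 with the block and between 0 and 1 with 1 culture left out. Of the single cultures, vehicle 2, vehicle 3 and TGFβ 1 each left 2 members called. All genes called, 937, became 1206 without a filter, 1420 with DESeq2, 1381 with the exact test and 2690 with the block. With 1 culture left out they were between 485 and 998. Of all genes, those lower, 230, became 366 without a filter, 408 with DESeq2 and 853 with the block. With 1 culture left out between 91 and 220 were lower. The regulators called, 2, became 4 without a filter, 5 with DESeq2, 4 with the exact test, 10 with the block and between 1 and 2 with 1 culture left out. The carriers called, 2, became 4, 4 and 4 under the same 3 settings, 5 with the block and between 0 and 3 with 1 culture left out. The partners called, 0, became 1 with DESeq2, 1 with the exact test, 2 with the block and between 0 and 1 with 1 culture left out. The block changed no call of a named ABC gene other than those given, and the cause of these moves was not tested. Few reads limited ABCA6, ABCA8, ABCA9, ABCA12, ABCA13, ABCB5, ABCC9 and ABCG1.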
